A study of Homo sapiens with 2 samples.

Results

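In HT-29 cells, 1169 of the 17847 SOX9 peaks (6.55%, 95% interval 6.20% to 6.92%) had their summit more than 100 and at most 1000 bp downstream of the nearest transcription start site (TSS). A TSS is the start of any transcript in the GENCODE annotation of GRCh37/hg19, and each peak was placed by its summit, the position of most reads as given in the authors' peak list. Strength and sequence played no part in choosing these downstream peaks, and upstream peaks are those at the same distances before the TSS. Ranges of distance leave out their lower limit. HT-29 is a human colorectal adenocarcinoma line with endogenous SOX9. The study comprised 1 library of chromatin precipitated with an anti-SOX9 antibody (SOX9 ChIP) and 1 library of sheared chromatin without antibody (input). Both came from cells cultured overnight with 10% FCS, with no treatment named. Each held 12320108 tags, which are uniquely aligned reads without duplicates, after the authors had downsampled the input to the number of the ChIP. With 1 library per group no value has a replicate error, and intervals given here are 95% intervals for counting error only (Wilson for shares, Newcombe for differences of shares, order statistics for medians).

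SOX9 is a transcription factor that binds DNA through its HMG box, and in the gut it is expressed in the lower part of the crypts, in stem cells and Paneth cells among others. The heterotrimeric factor NF-Y binds CCAAT boxes, which usually lie a short way upstream of the TSS. The stretch just after a TSS holds the first exon, its splice donor and the start of the first intron. RNA polymerase II often pauses there, and alternative start sites and intronic enhancers can lie in it as well.

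Matches to known motifs within 100 bp of the summit are shown for downstream peaks of protein-coding genes with many tags. A match shown need not lie under the summit. Along the gene, the nearest was centred at -4 bp from it (VASP) and the farthest at 89 bp (PPFIA3). The 3 Motif 1 matches were centred at -58 bp (OPA3), 73 bp (ING1) and -76 bp (NFYA). Motif 1 is a CCAAT box preceded by 2 purines and followed by C or G and a purine, so every Motif 1 match contains CCAAT. The Motif 1 matches were in the first introns of OPA3, which encodes a mitochondrial protein (chr19:46087777-46087805, minus strand, the strand of the gene), and of ING1, a chromatin reader (chr13:111368122-111368150, minus strand). The third was in the first exon of NFYA, the NF-Y subunit that contacts CCAAT (chr6:41040773-41040801, plus strand), centred 65 bp after the TSS, with the summit in the first intron at 141 bp. Sequences are from GRCh37, run 5′ to 3′ on the strand named, and have the motif in capitals. These peaks held 203, 200 and 196 tags.
OPA3: ttctgtctacGACCAATCAcagcccgaac
ING1: ccaggcctccAGCCAATGGggaggaggcc
NFYA: ccggtactggAGCCAATCAgcgcgggcag

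Motif 2 is the SOX9 consensus, with A or T in its first 2 places, then CAA, then A or T, then G. It is shown for PPFIA3, encoding the synaptic scaffold liprin-alpha-3 (chr19:49653736-49653762, minus strand, 493 tags), PPDPF (chr20:62152439-62152465, minus strand, 262 tags) and POLR1A, the largest subunit of RNA polymerase I (chr2:86333110-86333136, plus strand, 212 tags). The POLR1A match holds ATCAAAG, the TCF/LEF string, which is 1 of the forms of Motif 2. All 3 matches were on the strand opposite to the gene.
PPFIA3: atcaataaatTACAAAGtagagaaaag
PPDPF: gagcgggtggAACAAAGgcgctttgtg
POLR1A: tttgaaaacaATCAAAGatatataaga

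Motif 3 is an inverted repeat of Motif 2, head to head over a spacer of 4 bp, with 1 exact copy and at most 2 mismatches in the other, so that every Motif 3 match also counts as Motif 2. The downstream peaks of protein-coding genes with Motif 3 that had the most tags were in first introns of ZNRF3, a ubiquitin ligase that removes Wnt receptors (chr22:29314254-29314283, 108 tags), GSN, the actin-severing protein gelsolin (chr9:124049415-124049444, 84 tags), and ANK2, a membrane scaffold (chr4:114063241-114063270, 59 tags). Measured from the canonical starts of these genes, the summits were 34662, 19038 and 92453 bp downstream, so the first introns are those of transcripts that start farther inside. Plus strands are shown, with the whole repeat and its spacer in capitals.
ZNRF3: ctgtacAAAAATACTTCCTTTGAAgtgtta
GSN: ccccagATCAGGGAAAGCTTTGTTtggcga
ANK2: ttgaaaAACAGTGGTGACATTGTTctgccc

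AP-1 sites (TGACTCA) and ETS cores (CCGGAAG) are shown because they separate the peaks by distance from the TSS. The AP-1 examples were in VASP, a regulator of actin filaments (chr19:46009986-46010012, minus strand, 169 tags), and SLC1A5, a glutamine transporter (chr19:47289812-47289838, plus strand, 131 tags). The ETS examples were in PIP4K2B, a phosphoinositide kinase (chr17:36956182-36956208, plus strand, 435 tags), and TADA3, a subunit of histone acetyltransferase complexes (chr3:9834628-9834654, minus strand, 174 tags).
VASP: cgccccgctcTGACTCAgtttcgcctg
SLC1A5: ccctgttccgTGACTCAtcatttcctt
PIP4K2B: tgccaccgctCCGGAAGggaaggaggg
TADA3: cttgggccttCCGGAAGttttccacct

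The downstream stretch held fewer SOX9 summits than its mirror image. Of the 3506 summits 100 to 1000 bp from a TSS on either side, 33.3% were downstream (31.8% to 34.9%) and 2337 were upstream. Per length, downstream stretches held 12.3 summits per Mb, against 25.9 in upstream stretches, 210 within 100 bp of a TSS and 2.85 elsewhere. The downstream stretches made up 3.07% of the genome and took 5.14% of the SOX9 signal and 4.16% of the input signal. The upstream stretches made up 2.92% of the genome and took 5.18% of the SOX9 signal and 3.86% of the input signal. The ratio of mean SOX9 to mean input signal was 1.23 downstream and 1.34 upstream, so the sides differed less in signal than in summits. Signal here is the number of tags that overlap a bin of 32 nt, each tag having been lengthened to 150 bp.

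The imbalance between the sides lay close to the TSS. At 100 to 200 bp, 326 summits were downstream and 1242 upstream, which is 26.2 and 104 per Mb. At 200 to 300 bp the densities were 17.2 downstream and 36.4 upstream, and at 300 to 400 bp they were 13.3 and 19.6. Beyond 400 bp the sides held like numbers, with 309 downstream and 309 upstream summits at 400 to 700 bp and 188 downstream and 178 upstream summits at 700 to 1000 bp. The size of the excess upstream depended on the setting. It was smaller by the midpoint of the interval, with 1697 downstream and 2337 upstream peaks, and with 1 TSS per gene, with 1812 downstream and 1965 upstream peaks. The TSS kept in this last setting was the one farthest upstream in each gene, not the canonical one. Summits near starts inside a gene are then measured from that first start, which itself favours the downstream side. It was larger with TSSs of protein-coding transcripts alone, with 863 downstream and 2278 upstream peaks, and at a limit of 100 on the MACS score, which is the negative log10 of the p-value times 10, with 780 downstream and 1732 upstream peaks. With 1 TSS per gene the equal numbers at 400 to 700 bp gave way to 479 downstream and 270 upstream peaks. Downstream summits had a median distance of 335 bp (quartiles 182 and 574 bp). The limits of the range cut a continuous distribution. There were 58 summits at 100 to 110 bp and 54 just outside at 90 to 100 bp, with median tags of 52.5 and 48.5. At the far limit there were 3 summits at 990 to 1000 bp and 5 just outside at 1000 to 1010 bp, with median tags of 48 and 75.

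Downstream summits were mostly intronic. In the transcript of the nearest TSS, 651 summits (55.7%, 52.8% to 58.5%) lay in the first intron, 384 (32.8%) in the first exon, 46 in a later exon and 17 in a later intron, and 71 (6.07%) lay past the end of a short transcript. In the same transcripts, 124 summits (10.6%) fell in a 5′-UTR, 80 (6.84%) in a coding exon and 3 in a 3′-UTR. Of the 1010 members with more than 1 exon, 259 (25.6%, 23.05% to 28.4%) had their summit within 100 bp of the end of the first exon, whose median length was 168 bp. Median tags were 52 (49 to 55) in first exons and 45 (43 to 48) in first introns.

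The nearest TSS belonged to a protein-coding gene for 810 downstream peaks (69.3%), to a long noncoding RNA for 274 (23.4%), to a small nuclear RNA (snRNA) for 19, to a processed pseudogene for 14 and to a miRNA for 11. It was often not the main start of the gene. For 394 peaks (33.7%) it was the start of the canonical transcript as GENCODE marks it. Measured from the canonical start of the 810 protein-coding genes, 412 summits (50.9%, 47.4% to 54.3%) were still 100 to 1000 bp downstream, 260 (32.1%) were more than 1 kb downstream, 51 were 100 to 1000 bp upstream and 85 were more than 1 kb upstream. None lay within 100 bp of it, which the choice of members fixes.

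Some downstream peaks also lay ahead of another start. The summit was upstream of a further TSS of the same strand within 1 kb in 186 peaks (15.9%, 13.9% to 18.1%) and within 1 kb of a TSS on the opposite strand in 248 (21.2%), while 786 (67.2%) had neither. The peak interval reached back over the TSS in 764 cases (65.4%). These peaks had a median of 57 tags (54 to 59), whereas the 405 that did not reach the TSS had 33 (31 to 35). Fold enrichment went the other way, with medians of 8.79 in peaks that reached the TSS and 10.32 in the others. The intervals of these medians did not overlap. Peaks that reached the TSS were also wider, at a median of 1031 bp against 691 bp. Their summits were nearer to it, at 232.5 bp against 639 bp. The part of width and distance in the tag counts was not tested. A second SOX9 peak with its summit between 1 kb upstream and 100 bp downstream of the same TSS was called for 107 members (9.15%), and it had more tags than the downstream peak in 73 of the 107.

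Because members were chosen by a summit past the TSS, the choice itself places the highest signal there, and the values at both positions are a description. The SOX9 ChIP signal was higher in the bin of the summit than in the bin of the TSS in 1133 of the 1169 peaks (96.9%), and at least 2 times as high in 741 (63.4%). At the TSS itself the SOX9 ChIP signal exceeded the input in 958 peaks (82.0%, 79.6% to 84.1%). The mean signal at the summit was 21.2 extended tags per bin in the SOX9 ChIP and 2.76 in the input, and at the TSS it was 8.07 in the SOX9 ChIP and 2.29 in the input. Upstream peaks averaged 28.9 in the SOX9 ChIP and 3.16 in the input at their summits.

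Downstream peaks had a middling number of tags but the lowest median fold enrichment of the 4 distance groups. The median was 47 tags (45 to 49, quartiles 31 and 69), against 56 (54 to 58) upstream, 55 (54 to 56) within 100 bp of a TSS, 36 farther than 1 kb and 45 over all peaks. The median MACS fold enrichment over the local input was 9.29 (9.02 to 9.60) for downstream peaks, against 10.24 (10.00 to 10.47) upstream, 10.15 within 100 bp of a TSS, 10.71 farther than 1 kb and 10.39 over all peaks. At the summit, the ratio of SOX9 to input signal, with 1 added to both, had a median of 5.50 (5.33 to 5.80) downstream, 6.0 (5.80 to 6.25) upstream, 5.75 (5.67 to 6.0) within 100 bp and 6.0 farther than 1 kb. Highly enriched peaks were scarcer downstream. A fold enrichment of at least 20 was reached by 5.56% of downstream peaks, 14.4% of upstream peaks and 10.3% of all peaks, a difference between downstream and upstream of -8.82 percentage points (-10.71 to -6.82). This difference lay within 400 bp of the TSS, with 4.91% downstream and 19.4% upstream at 100 to 200 bp and 5.20% and 10.7% at 200 to 400 bp. At 400 to 700 bp the shares were 7.12% downstream and 5.18% upstream, and at 700 to 1000 bp they were 4.79% and 7.87%, with intervals of the difference from -1.93 to 5.89 and from -8.47 to 2.04 points. More than 100 tags were held by 10.6% of downstream peaks, 19.7% of upstream peaks and 10.7% of all peaks. A MACS score of at least 100 was reached by 66.7% of downstream peaks against 68.2% of all peaks, and an empirical FDR of 0 by 78.9% against 80.3%.

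Tag counts were lower farther from the TSS on both sides, while fold enrichment downstream was not. Median tags were 53, 48, 46 and 37 downstream at 100 to 200, 200 to 400, 400 to 700 and 700 to 1000 bp, and 61, 55, 47 and 41 upstream at the same distances. Median fold enrichments in these bins were 8.75, 9.245, 9.74 and 9.755 downstream and 10.71, 9.87, 9.35 and 9.82 upstream, so that the sides differed beyond their intervals in the first bin (8.40 to 9.24 downstream, 10.33 to 11.12 upstream) and their intervals overlapped in the others. The lower tag count of downstream peaks depended on how a peak was placed. By the midpoint of the interval in place of the summit, the medians were 58 downstream and 55 upstream. The lower share at a fold of at least 20 held in both of the other placements, with 6.84% downstream and 13.9% upstream by the midpoint, and 8.83% and 14.3% with 1 TSS per gene.

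Among all SOX9 peaks, 85 (0.476%) had more than 300 tags, and 8 of them were downstream peaks. The input at these 8 summits lay between 1 and 13, the highest input of any downstream summit, which was reached in PIP4K2B, CCAT2 and CHRAC1, against a median of 2 over all downstream peaks. PRDM10, which encodes a zinc finger factor, led with 614 tags at a fold enrichment of 56.94, and its summit, 249 bp into the gene in the first intron, had a signal of 166 in the SOX9 ChIP and 2 in the input. The signal there was higher than at the TSS, where the SOX9 ChIP had 85. PRMT1, the main asymmetric arginine methyltransferase, had 480 tags, with 8 in the SOX9 ChIP at the TSS and 139 in the SOX9 ChIP and 1 in the input at the summit. This summit was 347 bp downstream of an alternative start, at -683 bp from the canonical one. ZNF335, a zinc finger protein of histone methyltransferase complexes, had 381 tags 413 bp downstream of its canonical start, with 168 in the SOX9 ChIP and 3 in the input at the summit and 13 in the SOX9 ChIP at the TSS. In PRMT1 and ZNF335 the SOX9 ChIP signal was thus far lower in the bin of the nearest TSS than in that of the summit, whereas in PRDM10 the gap was smaller. The choice of members itself places the summit past the TSS.

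Other strong peaks lay nearer to a start or far inside a gene. The PIP4K2B peak held 435 tags, with a summit 105 bp downstream of its nearest TSS and signals of 146 in the SOX9 ChIP and 13 in the input, the highest input of the 12 strongest. CDON, a receptor component for hedgehog ligands, had 288 tags, with 164 in the SOX9 ChIP and 5 in the input at the summit and 74 in the SOX9 ChIP at the TSS 125 bp before it. Both summits were upstream of the canonical start, at -465 bp in PIP4K2B and -301 bp in CDON. The PPFIA3 peak of 493 tags lay 445 bp after the start of a retained-intron transcript and 30859 bp after the canonical start, with 136 in the SOX9 ChIP and 5 in the input at the summit. C19orf73 had 324 tags with a summit in a coding exon, where the SOX9 ChIP had 107 and the input 4. PPDPF had 262 tags at a fold of 53.18, LANCL2 250 tags at 33.61 and CCT5, a subunit of the cytosolic chaperonin, 235 tags at 26.79. The CCT5 summit, too, was upstream of the canonical start, at -216 bp. The same held for EEF1D (-157 bp), USP1 (-584 bp), RPL7 (-677 bp), the stronger VASP peak (-734 bp) and SPRY4 (-941 bp), all described below. It also held, at greater distances, for HNRNPL (-2019 bp), CLDN4 (-2515 bp) and TRIB3 (-17269 bp), likewise named below. Other summits named below lay far inside the gene, such as those of LFNG and CTNND1, 4567 and 19966 bp downstream of the canonical start. The highest fold enrichment among the peaks named was 80.61, in TADA3, where the summit had 81 in the SOX9 ChIP and 1 in the input.

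**Figure D1:**
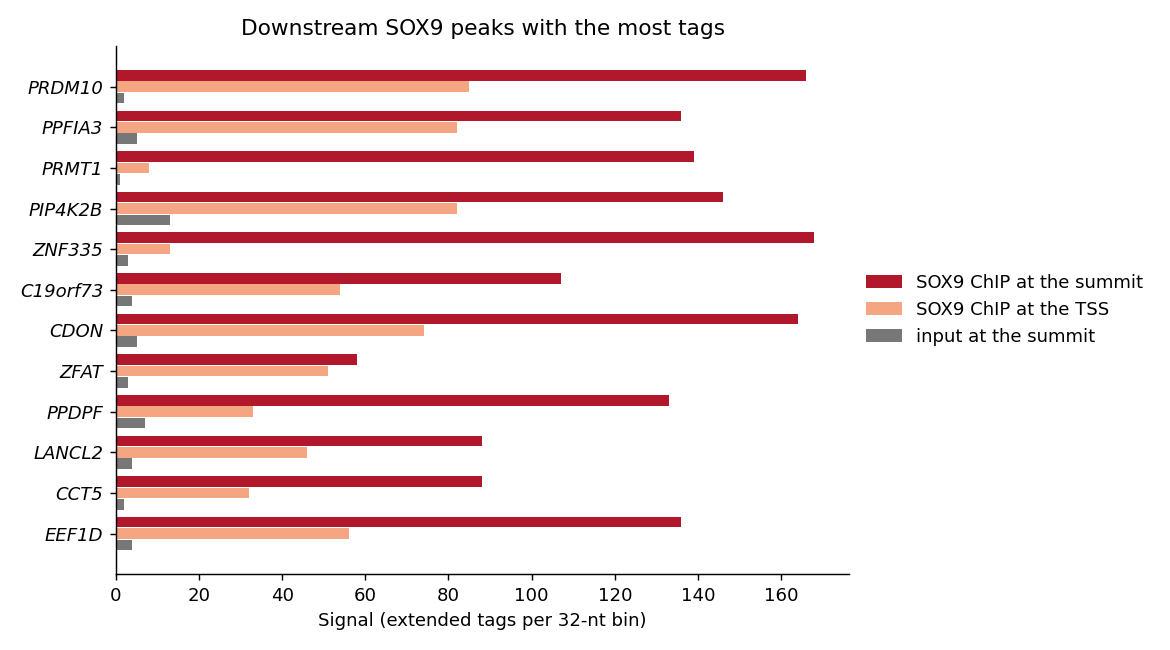
Signal in extended tags per 32-nt bin for the 12 downstream peaks of protein-coding genes with the most tags and a fold enrichment of at least 10, from most tags (top) to fewest. Bars give the SOX9 ChIP at the summit (red), the SOX9 ChIP at the TSS (orange) and the input at the summit (grey), and the input is at most 13 in each of them. The limit on fold enrichment itself favours peaks with a low input.

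On chromosome 8, CCAT2, CHRAC1, ZFAT and EEF1D had strong downstream peaks, with a high input around the first 3. CCAT2, a long noncoding RNA of the 8q24 region, had 543 tags, with 197 in the SOX9 ChIP and 13 in the input at a summit 913 bp downstream. CHRAC1, a subunit of a chromatin remodelling complex, had 407 tags at a fold of 6.88, with 56 in the SOX9 ChIP and 13 in the input. ZFAT, a zinc finger gene, had 281 tags at a fold of 12.40, with 58 in the SOX9 ChIP and 3 in the input. EEF1D, encoding a subunit of translation elongation factor 1, had 229 tags at a fold of 58.95, with 136 in the SOX9 ChIP and 4 in the input. The mean input in a window of 10 kb around the summit, relative to the mean of the autosomes, was 8.07 at CCAT2, 6.24 at CHRAC1, 4.86 at ZFAT and 2.07 at EEF1D, and the part of this background in the tag counts was not tested. Chromosome 8 held 39 downstream peaks (3.34%), against 3.51% of the other peaks, and leaving it out moved no summary of the downstream peaks beyond its interval.

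Genes of small nuclear RNAs carried some of the broad downstream peaks. The 19 snRNA members had a median of 100 tags (34 to 155) over a median width of 1157 bp, against 890 bp over all downstream peaks, and their nearest TSSs belonged to U1, U2, U4, U5 and U6 genes or pseudogenes. RNU4-2, a U4 gene, had 293 tags with the summit 242 bp downstream, and RNU5B-1 and RNU5A-1, of the U5 family, had 200 and 169 tags with summits at 146 and 257 bp. RNU1-2 and RNU1-1 had 155 and 100 tags. At the other end, RNU6-1273P had 22 tags. The median of the SOX9 to input ratio at these summits was 4.80 (4.22 to 7.67), against 5.50 over all downstream peaks. snRNA genes have near-identical copies, and unique alignments alone were kept, so the values of single copies are uncertain.

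CCAAT boxes were scarcer downstream than at other positions near genes. Motifs were looked for up to 100 bp to either side of the summit, on the plus and the minus strand. CCAAT was found in 16.1% of downstream peaks (26.4% of all peaks), 30.6% of upstream peaks and 32.3% of those within 100 bp of a TSS. Motif 1 was found in 52 downstream peaks, 4.45% (8.98% of all peaks), against 14.4% upstream, a difference of -9.93 percentage points (-11.74 to -8.02). It was in 15.9% of peaks within 100 bp and 2.93% of those farther than 1 kb. The gap to upstream peaks was widest in the first bin, with 3.37% downstream and 20.9% upstream at 100 to 200 bp. At 400 to 700 bp Motif 1 was in 5.50% of downstream and 5.83% of upstream peaks, and the interval of this difference ran from -4.11 to 3.45 points. Motif 1 was less common downstream than upstream with every TSS set, score limit and peak position tried, the nearest approach being 8.28% downstream and 15.9% upstream with 1 TSS per gene.

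Motif 1 was nonetheless more frequent in downstream peaks than in windows at a like distance from gene starts. In windows of the same length centred 335 bp after the canonical TSSs of protein-coding genes, the median distance of the members, Motif 1 was present in 1.17% (0.956% to 1.42%) of 8233 windows of genes with a SOX9 summit within 1 kb and 1.16% (0.982% to 1.37%) of 11630 windows of genes without one. These windows cover protein-coding genes alone, whereas the downstream peaks lie at starts of every gene type. For the CCAAT core alone the excess held only against windows of genes with a summit, at 11.7% (11.1% to 12.5%). Windows of genes without a summit had the core in 17.3% (16.6% to 18.0%), against 16.1% of downstream peaks. The 52 downstream peaks with Motif 1 had a median of 63 tags (54 to 90) and a SOX9 to input ratio at the summit of 9.17 (6.5 to 12), against 47 tags and 5.50 over all downstream peaks. The motif was centred a median of 28.5 bp from the summit. It was found in 5.68% of summits in first introns and 2.86% of those in first exons, a difference of 2.82 points (0.15 to 5.23).

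The SOX9 consensus was of intermediate frequency and grew with distance. Motif 2 was in 167 downstream peaks, 14.3% (20.5% of all peaks), against 11.2% of upstream peaks, 6.89% within 100 bp and 34.3% farther than 1 kb. Downstream it was in 9.20%, 13.0%, 16.2% and 22.3% of peaks at 100 to 200, 200 to 400, 400 to 700 and 700 to 1000 bp, and upstream in 9.10%, 10.7%, 15.9% and 19.1%. The last downstream bin exceeded the first by 13.1 points (6.66 to 20.1). GC content moved with it, at medians of 68.2%, 66.7%, 63.2% and 59.2% in the same downstream bins, and its part in this trend was not tested. The small excess of downstream over upstream peaks turned round when TSSs of protein-coding transcripts alone were used (8.57% downstream, 8.78% upstream) and with 1 TSS per gene (7.73% and 10.6%). In the windows 335 bp after canonical TSSs, Motif 2 was present in 7.13% of those with a summit within 1 kb and 12.6% of those without. The 14.3% of downstream peaks (12.4% to 16.4%) covers starts of every gene type, whereas the windows are of protein-coding genes alone. At protein-coding starts Motif 2 was in 11.2% of downstream peaks, between the values of the windows with and without a summit. Median GC content was 66.7% in these windows with a summit nearby and 59.7% in those without, and 64.7% in the downstream peaks.

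Within the downstream peaks, Motif 2 was less common where another start lay ahead. It was in 5.38% of the peaks with a further TSS ahead and 15.97% of those with none, a difference of -10.6 points (-14.0 to -5.84). The peaks with a TSS ahead were also nearer to their own TSS, at a median of 176 bp against 377 bp, and had a median GC content of 68.7% against 64.2%, and the part of distance and GC content in the difference was not tested. Motif 2 was in 20.1% of peaks at long noncoding RNA starts and 11.2% of those at protein-coding starts. Motif 3 was in 29 downstream peaks, 2.48% (3.57% of all peaks), against 1.54% upstream, 0.457% within 100 bp and 6.62% farther than 1 kb, and it was in 6.91% at 700 to 1000 bp. Peaks with Motif 3 had a median of 49 tags and a ratio of 8.0 (5.6 to 12). The TCF/LEF string ATCAAAG, a form of Motif 2, was in 2.74% of downstream peaks (3.41% of all peaks).

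AP-1 sites, ETS cores and SP/KLF boxes placed downstream peaks, like upstream peaks, between those at the TSS and distant ones. AP-1 sites were in 7.36% of downstream peaks (12% of all peaks), 6.16% of upstream peaks, 3.22% within 100 bp and 20.9% farther than 1 kb. They were in 1.78% of the windows 335 bp after canonical TSSs of protein-coding genes without a summit within 1 kb. At 700 to 1000 bp AP-1 sites were in 11.7% of downstream and 16.9% of upstream peaks. ETS cores were in 5.90% of downstream peaks (9.17% of all peaks), 7.02% of upstream peaks, 19.9% within 100 bp and 2.25% farther than 1 kb. The SP/KLF box GGGCGG was in 45.3% of downstream peaks (37.7% of all peaks), 53.5% of upstream peaks, 63.4% within 100 bp and 13.0% farther than 1 kb. It was in 46.9% of the windows of genes with a summit within 1 kb and 27.6% of those without. The YY1 string AAGATGGC was in 1.37% of downstream peaks (2.45% of all peaks) and the NRF1 string GCATGCGC in 0.257% (1.61% of all peaks). The E-box CACGTG was in 5.90% (5.9% of all peaks), the cyclic AMP response element TGACGTCA in 0.770% (1.46% of all peaks) and the ZNF143 string in 0.599% (1.61% of all peaks). Of the downstream peaks, 845 (72.3%) had neither CCAAT nor Motif 2 or 3, against 58.4% of all peaks. They had a median of 47 tags (44 to 49) and a ratio of 5.33 (5.17 to 5.60), compared with 5.50 over all downstream peaks.

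**Figure D2:**
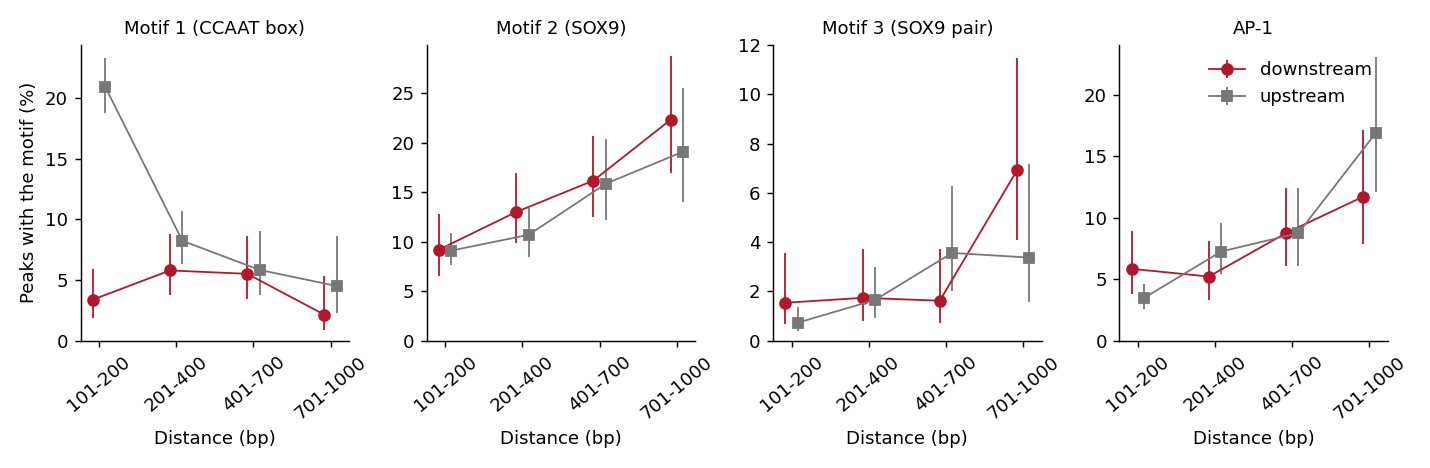
Percent of peaks with Motif 1, Motif 2, Motif 3 and AP-1 by distance of the summit from the nearest TSS (bp), downstream (red circles) and upstream (grey squares), with Wilson 95% intervals and a separate vertical axis in each panel. Motif 1 differs between the sides at 100 to 200 bp (3.37% downstream, 20.9% upstream), and Motif 2 reaches 22.3% downstream at 700 to 1000 bp.

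With each summit given to the gene of its nearest TSS, downstream peaks were found at 777 of the 20136 protein-coding genes (3.86%), whereas 35.6% had a summit within 1 kb on either side. The signalling lists had downstream shares above 3.86%, each from 1 to 4 genes, and these are counts with no test. Most genes of these lists also had a summit within 1 kb on either side. The counts were 27 of 38 Wnt, 16 of 28 TGF-beta and BMP, 27 of 35 EGF receptor and ERK, 12 of 22 Notch and 15 of 22 Hippo genes. Their higher shares are thus not shown to be particular to downstream peaks. Of 38 Wnt pathway genes, 4 (10.5%) had a downstream peak, namely ZNRF3 (108 tags), the Wnt receptor gene FZD5 (64 tags), APC (51 tags), the scaffold of the complex that destroys beta-catenin, and FZD7 (32 tags). Of 28 genes of TGF-beta and BMP signalling there were also 4 (14.3%), with the effector SMAD3 (85 and 47 tags in 2 peaks), the ligands BMP2 (57 tags) and BMP4 (37 tags) and the repressor SKI (37 tags). Of 35 genes of EGF receptor and ERK signalling and its feedback there were 3 (8.57%), with the phosphatase DUSP1 (86 tags), the inhibitor SPRY4 (54 tags) and the ligand HBEGF (39 tags). The strongest member in any signalling list was LFNG, a glycosyltransferase that modifies Notch, with 182 tags 748 bp downstream and 50 in the SOX9 ChIP against 10 in the input. It was the single member of 22 Notch genes (4.55%), and STK3 (35 tags) that of 22 Hippo genes (4.55%), so 1 gene is enough to pass 3.86% in lists of this size.

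Transcription factor lists were represented by moderate peaks. A summit within 1 kb on either side was present at 16 of the 28 gut lineage factors and 21 of the 26 immediate early genes. Of 28 gut lineage factors 4 (14.3%) had a downstream peak, SOX13 (53 tags), the crypt stem cell factor ASCL2 (53 tags), ELF3 (48 tags) and FOXA2 (22 tags). Of 26 immediate early genes there were 3 (11.5%), with the mRNA decay factor ZFP36 (110 tags), KLF10 (97 tags) and EGR2 (31 tags). The KLF10 summit had Motif 1, Motif 2 and an AP-1 site within 100 bp, and signals of 36 in the SOX9 ChIP and 2 in the input. Of 68 chromatin regulators 4 (5.88%) were members, with SMARCB1, a core subunit of SWI/SNF remodellers, at 62 tags. Of 37 p53 pathway genes 3 (8.11%) were members, with BBC3, which encodes the proapoptotic protein PUMA, at 79 tags. The share over all protein-coding genes was 3.86%. A summit within 1 kb on either side was present at 43 of the 68 and 27 of the 37 genes, so these counts are not particular to downstream peaks.

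Ribosomal and cell cycle lists had downstream peaks in shares on both sides of the 3.86% of all protein-coding genes, although most of their genes had a summit near a TSS. Of 58 cytosolic ribosomal protein genes, 47 had a summit within 1 kb by this assignment and 1 (1.72%), RPL7 (68 tags), had a downstream peak. Of 40 genes of the G2 and M phases the counts were 35 and 2 (5.0%), with the CDK1-inhibiting kinase PKMYT1 (76 tags) and the cytokinesis protein ANLN (75 tags). The PKMYT1 summit was 10461 bp downstream of the canonical start. The ANLN peak was weak, with a fold of 4.23 against a median of 9.29 over downstream peaks. At its TSS the SOX9 ChIP had 5 and the input 9. Of 40 replication genes the counts were 31 and 1 (2.50%). The single replication gene was PCNA, the sliding clamp of DNA polymerases, whose peak of 117 tags was in the first intron 509 bp after the canonical TSS, carried Motif 1 and had 51 in the SOX9 ChIP and 2 in the input at its summit. USP1, a deubiquitinase of DNA repair, had 110 tags with Motif 1 and Motif 2. It was 1 of 3 (7.5%) among 40 ubiquitin-specific protease genes, of which 23 had a summit within 1 kb. The remaining lists had 1 to 3 members each, in shares from 2.70% to 6.0%. They included HNRNPL (92 tags) and U2AF2 (85 tags) among 49 splicing genes, and EEF1D and PABPC1 (30 tags) among 39 translation factors. POLR2H (118 tags) was among 50 genes of RNA polymerase II, CLDN4 (73 tags) and CTNND1 (65 tags) among 39 junction and keratin genes, and TRIB3 (31 tags) among 37 stress response genes. In these 5 lists 34, 27, 29, 30 and 26 genes had a summit within 1 kb on either side.

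In all, 35 genes had more than 1 downstream peak, and 5 TSSs had more than 1. Of these genes, PPFIA3 (493 and 62 tags), CIC (191 and 116 tags) and VASP (169 and 89 tags) had the highest sums, each with its peaks at different starts. CIC encodes a repressor of genes induced by RAS and ERK signalling. Its stronger peak had Motif 1 in the first intron, 528 bp downstream, with 68 in the SOX9 ChIP and 4 in the input, and the second was in a 5′-UTR with 23 in the SOX9 ChIP and 3 in the input. In VASP the stronger peak had a fold of 7.14 and an AP-1 site, and the weaker one a fold of 39.47 and Motif 1, with a summit signal of 29 and 65 in the SOX9 ChIP and 4 in the input at both. Tags and fold enrichment thus ranked these 2 peaks in opposite order. Among genes that also had a peak at or before the TSS, the downstream peaks with the most tags were at a long noncoding RNA, ENSG00000289875 (102 tags), at HMGB1, a chromatin protein (102 tags, with 35 in the SOX9 ChIP and 8 in the input at the summit), and at DUSP1.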

How the data were processed

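SOX9 ChIP and input from HT-29 cells were analysed from the files the authors deposited. Per the labels and the study's methods, 50-nt single-end reads were aligned to hg19 with BWA, duplicates were removed and the input was downsampled to the ChIP. Peak calling by the authors used MACS (version 1.3.7.1) with a p cut-off of 1e-07 and an mfold of 16. In the deposited peak list, tags are counts, the score is the negative log10 p times 10, fold enrichment is a ratio to local input and FDR is a percent. The deposited signal maps give extended tags per bin, not scaled further, and their total fits the tag number and the GRCh37 chromosomes. The BED copy of the list was not used.

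Distances were taken to GENCODE release 44 TSSs (254376 transcripts, lifted to hg19), and motifs were read from GRCh37. The labels give DMEM as the medium and the methods McCoy's 5A. No test between conditions was possible with 1 library each, and peaks are not replicates. Members, the 18 gene lists, the motifs and the comparisons were chosen with earlier results of these data known. The genes named are the 12 downstream peaks of protein-coding genes with the most tags at a fold of at least 10, up to 2 per list, the top 3 for each of Motifs 1 to 3, up to 3 genes with several peaks and up to 3 with an upstream peak. Further list members, snRNA genes, CCAT2, CHRAC1, POLR1A, SLC1A5 and TADA3 were named after their values were seen. No sequence of chromosome 8 is printed. Alternatives were the interval midpoint, other TSS sets, a score of 100, an upper distance of 500 bp, no high input, no TSS ahead and other motif windows or forms. Leaving out snRNA genes or chromosome 8, and the comparison of both sides under other settings, were chosen after seeing the data. Tables were made with pandas 2.3.3, NumPy 2.4.6 and SciPy 1.17.1 under Python 3.11.15, figures with matplotlib 3.10.9, and the procedures were tested on simulated data.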

Additional observations from a re-analysis of the deposited data

How the results depend on the processing

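Of 75 values recomputed under 12 settings, 47 stayed within their interval or 1.5 times their count and 28 moved further. No value moved without snRNA genes or without chromosome 8. By the interval midpoint the downstream peaks had a median of 58 tags and a ratio of 3.50, with Motif 1 in 2.71%, Motif 2 in 11.4%, a TSS ahead in 25.3% and the summit past the first exon in 59.4%, and they shared 819 members with the 1169. Of the 54 peaks named by rule, 27 were downstream peaks by the midpoint and 28 with 1 TSS per gene, so that about as many named genes depend on these choices as do not. TSSs of protein-coding transcripts gave 51 tags and Motif 2 in 8.57%. With 1 TSS per gene, the one farthest upstream, there were 1812 peaks, 54 tags, Motif 1 in 8.28%, Motif 2 in 7.73% and 59.9% past the first exon. A score of 100 gave 58 tags, a ratio of 6.0 and Motif 1 in 5.90%. With an upper distance of 500 bp there were 51 tags, Motif 2 in 11.6%, a TSS ahead in 21.4% and 56.9% past the first exon, and without peaks that had a TSS ahead the last share was 70.3%. Windows of 50 bp held Motif 1 in 2.74% and Motif 2 in 8.81%, whole intervals in 11.2% and 42.7%, and the CCAAT core was in 16.1%.

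Which peaks count as downstream thus rests on the TSS set and on the summit. No paired analysis was possible because there was 1 library per group. With 1 replicate, biological and technical variation cannot be told apart from the values given, and weak peaks are limited by depth.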
